A study of Homo sapiens with 2 samples.

Results

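The genes described here are 7SK and 8 protein-coding genes of the machinery that 7SK controls. The RNA was listed by its Ensembl identifier, ENSG00000202198, and the others by symbol (HEXIM1, LARP7, MEPCE, CDK9, CCNT1, CCNT2, AFF4 and ELL2), and symbols were matched to the files through GENCODE 44. The 9 genes are 9 of 60554 in the count files, and every one of them had a row. Chromatin-associated RNA was measured in 2 replicates of SH-SY5Y, an adrenergic neuroblastoma cell line spelled SHSY-5Y in the labels, with no genetic modification, no treatment and no other group. The labels do not say whether the replicates came from separate cultures. With 1 condition there is nothing to test a level against, and each value below describes 2 libraries.

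7SK is a short RNA made by RNA polymerase III that stays in the nucleus and scaffolds a ribonucleoprotein. LARP7 binds its 3′ end and MEPCE caps its 5′ end, and together they keep the RNA stable, while HEXIM1 joins the complex and inhibits the kinase held in it. That kinase is P-TEFb, made of CDK9 and a cyclin T (CCNT1 or CCNT2), which phosphorylates RNA polymerase II and its pausing factors so that paused polymerase moves into productive elongation. AFF4 is the scaffold of the super elongation complex and ELL2 one of its elongation factors, and both belong to the active side of P-TEFb. Only RNA was measured, so nothing here shows the proteins, the complexes or the kinase activity.

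The files count read pairs per gene on each strand. Counts on the gene's own strand, called sense counts, summed to 4155210 in replicate 1 and 3425309 in replicate 2, and counts on the other strand, called opposite counts, made up 11.5% and 11.3% of both strands together. CPM is sense counts per 1000000 sense counts in genes, and CPM per kb divides it by the exon bases that no other gene of the same strand shares. Of the uniquely mapped pairs, 18.5% and 17.5% were in genes and 79.4% and 80.7% touched no exon on the sense strand. Pairs wholly outside annotated exons are thus part of no level. Exons of all annotated transcripts count, so a stretch that is intron in 1 transcript can be exon in another. LARP7, for example, has 8094 exon bases, against 3204 in its longest transcript. All 6 adrenergic neuroblastoma markers were detected, with a median of 383 CPM. Markers of endothelial cells (2 genes), leukocytes (3) and Schwann cells (3) had at most 1 sense count in either library, EPCAM was the 1 of 2 epithelial markers detected, and all 4 fibroblast markers were detected, from 6.31 to 280 CPM with COL3A1 the highest. The part of these other markers in the levels below was not tested. In bulk samples such as these, fewer cells with an RNA and less of it per cell cannot be told apart.

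The sequence of 7SK matters here because it decides which reads could be counted. 7SK lies on the plus strand of chromosome 6, at chr6:52995620-52995950 in GRCh38 (hg38), as 1 exon of 331 bases with no intron. Its first 120 bases and its last 61 bases (bases 271 to 331) are shown with those of the genomic copies that had the most counts. Capitals mark GATC, the letters of the short repeated element of 7SK that HEXIM1 is known to contact, and in 7SK these begin at bases 13, 42 and 64.
7SK, bases 1 to 120: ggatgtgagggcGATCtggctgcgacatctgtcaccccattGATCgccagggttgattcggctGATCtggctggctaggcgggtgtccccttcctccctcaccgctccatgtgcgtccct
7SK, bases 271 to 331: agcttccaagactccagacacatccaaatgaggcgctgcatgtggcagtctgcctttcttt
RN7SKP240, bases 1 to 120: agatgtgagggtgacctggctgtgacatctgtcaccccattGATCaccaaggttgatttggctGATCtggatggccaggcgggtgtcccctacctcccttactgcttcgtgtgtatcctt
RN7SKP184, bases 1 to 120: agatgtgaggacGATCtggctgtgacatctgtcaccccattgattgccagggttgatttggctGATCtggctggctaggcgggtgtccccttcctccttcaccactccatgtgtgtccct
RN7SKP253, bases 1 to 120: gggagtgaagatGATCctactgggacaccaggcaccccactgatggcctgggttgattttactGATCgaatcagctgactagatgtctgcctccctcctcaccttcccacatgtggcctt

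Counted from each copy's own first base, GATC began at bases 42 and 64 in RN7SKP240 and at bases 13 and 64 in both RN7SKP184 and RN7SKP253, so each of these copies held it fewer times within these 120 bases than 7SK did. GATC on its own is a common string of letters and its own reverse complement. It was found at least once in 260 of the 293 copies annotated as RN7SKP genes, or 88.7%, and at least 3 times in 82 of them. A match is a description of the letters and not a binding site.

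Reads that map to several places are in no gene's count, nor are pairs touching exons of more than 1 gene on the strand counted. 7SK holds 257 windows of 75 bases, the sequenced length of 1 read of a pair, and 94 of them (36.6%) occur once in hg38. The other 163 occur up to 4 times in exact form, begin between bases 1 and 188 and reach base 262. Their exact matches lie in 8 other stretches of 1 kb of the genome. The coding members had no such limit: all windows of HEXIM1, MEPCE, CDK9, CCNT1, CCNT2 and AFF4 occurred once, as did 99.1% of those of LARP7 and 95.7% of those of ELL2. A pair is placed by both of its reads, so these shares describe single stretches of 75 bases and are not the share of 7SK pairs lost. The authors took molecular identifiers off the reads and trimmed them before mapping. Mapped reads were thus shorter than 75 bases, and shorter stretches can match more places.

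7SK was the RNA with the third highest count in these libraries. It had 19724 sense counts in replicate 1 and 14522 in replicate 2, or 4747 and 4240 CPM, a mean of 4493 ± 359 (SD, n = 2). It thus held 0.475% and 0.424% of all counts in genes. No opposite count was found in either library, which allows an opposite share of up to 0.0152% in replicate 1 and 0.0207% in replicate 2. Such limits, and the intervals given below, cover counting error only. The ratio of replicate 1 to replicate 2 was 1.12, with a 95% interval of 1.10 to 1.14, so the libraries differed by more than counting error.

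The genes closest to 7SK in mean CPM were mostly long RNAs. Above it at rank 2 stood MALAT1, a long nuclear RNA, with 5442 and 5975 CPM (5709 ± 377, SD, n = 2). Below it stood DST, a cytoskeletal linker gene, with 3298 and 3328 CPM, MEIS2, a homeodomain factor, with 2980 and 2948 CPM, and DDX5, an RNA helicase, with 2385 and 2740 CPM. The values of 7SK did not overlap those of MALAT1 or DST between libraries. On the per-length scale the order was another one: 7SK had 13575 ± 1084 CPM per kb (SD, n = 2), against 555 for MALAT1 and 275 for DDX5. Among 14703 genes detected and with a length of their own, 7SK was at rank 2 per kb.

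A mean sense count of at least 10 was taken as detection, and all 9 genes passed it, HEXIM1 only just at 10.5. Of all genes 24.7% passed it, of protein-coding genes 59.4%, and of the class that 7SK belongs to in the annotation, misc_RNA, 4.49%. The 9 genes were listed for their role and not drawn from these classes, so their count is set beside those shares only as a scale. The 11637 detected coding genes had a median of 6.69 CPM per kb. The 172 of them with a single exon had a median of 5.45.

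**Figure D1:**
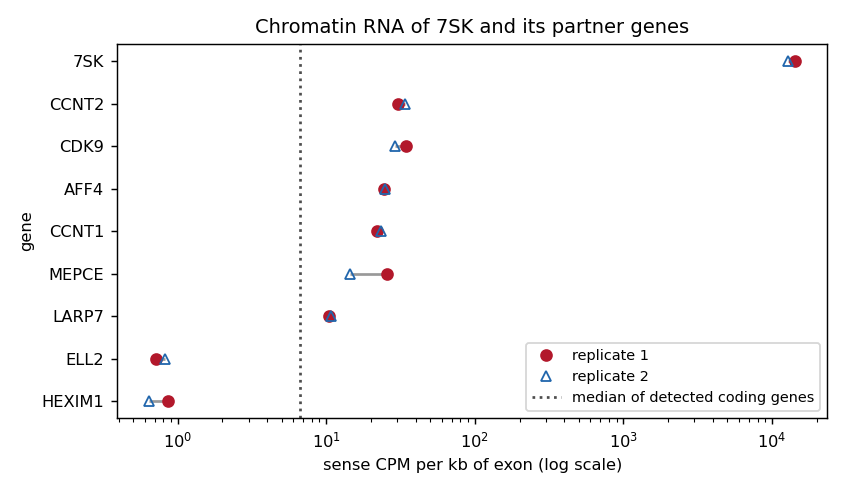
Sense CPM per kb of exon (x axis, log scale) of each of the 9 genes (y axis, ordered by mean), with replicate 1 as filled circles, replicate 2 as open triangles and a grey line joining them. 7SK lies near 13575 CPM per kb, 6 coding genes lie between 10.4 and 34.4, and ELL2 and HEXIM1 lie under 1, below the dotted median of detected coding genes at 6.69.

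Of HEXIM1, LARP7 and MEPCE, HEXIM1 was the lowest in both libraries. HEXIM1 (17:45148475-45152099, plus strand, GRCh38), the inhibitor of P-TEFb, is a single exon of 3625 bases. It had 13 and 8 sense counts, or 3.13 and 2.34 CPM (2.73 ± 0.561, SD, n = 2). Per kb it had 0.863 and 0.644 CPM, at percentile 3.58 of detected coding genes and 3.20 of those with 1 exon. It has no intron outside what was counted, and all of its 75-base windows occur once. Whether any of the 3996 genes in the files without a GENCODE entry overlaps HEXIM1 on its strand could not be checked. Pairs on such an overlap would be missing from its sense counts.

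LARP7 (4:112637077-112657696, plus strand), which holds the 3′ end of 7SK, had 351 and 299 sense counts. That is 84.5 and 87.3 CPM (85.9 ± 1.99, SD, n = 2), and the replicate ratio of 0.968 had an interval of 0.827 to 1.13. Its level per kb, 10.4 and 10.8 CPM, was at percentile 66.7 of detected coding genes. MEPCE (7:100428322-100434126, plus strand), the capping enzyme of 7SK, had 357 and 168 sense counts, or 85.9 and 49.0 CPM. Its libraries stood apart: the replicate ratio was 1.75, with an interval of 1.45 to 2.12. Per kb it had 25.5 and 14.5 CPM, and its mean of 20.01 ± 7.73 (SD, n = 2) was at percentile 85.0.

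MEPCE was the 1 of 9 genes whose CPM differed between the libraries by more than 1.5-fold. Of the 14978 genes detected, 8.07% were past 1.5-fold higher in replicate 1 and 4.16% past it higher in replicate 2. Among the 5823 genes with a mean count of 100 to 600, the range that MEPCE lies in, 2.59% were past 1.5-fold higher in replicate 1. With 1 library a side, the reason for such a gap cannot be read from these files.

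The genes of P-TEFb were present at like levels per kb. CDK9 (9:127785679-127790792, plus strand), the kinase, had 429 and 300 sense counts, or 103.2 and 87.6 CPM. Per kb it had 34.4 and 29.1 CPM (31.8 ± 3.69, SD, n = 2), at percentile 93.3. CCNT1 (12:48688458-48716998, minus strand), the cyclin T that HIV Tat recruits, had 672 and 589 sense counts, or 162 and 172 CPM. Its level per kb was 21.9 and 23.3 CPM, at percentile 87.6. CCNT2 (2:134918235-134959342, plus strand), the alternative cyclin, had 1145 and 1054 sense counts, or 276 and 308 CPM, the highest mean CPM of the 8 coding genes, though AFF4 had 3 counts more in replicate 1. Its level per kb was 30.3 and 33.9 CPM (32.1 ± 2.50, SD, n = 2), at percentile 93.4.

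Within each library CCNT2 stood above CCNT1 per kb, by 1.38-fold in replicate 1 and 1.45-fold in replicate 2. CDK9 stood above CCNT1 by 1.57-fold and 1.25-fold. Between CDK9 and CCNT2 the direction turned, with a ratio of 1.13 in replicate 1 and 0.860 in replicate 2, so these do not differ beyond their spread. No opposite count fell on CDK9, and CCNT1 and CCNT2 had at most 3 in a library.

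The super elongation complex was represented at very different levels. AFF4 (5:132875395-132963634, minus strand), its scaffold, had 1148 and 956 sense counts, or 276 and 279 CPM (278 ± 1.99, SD, n = 2). Per kb it had 24.5 and 24.7 CPM, at percentile 89.3, and its replicate ratio of 0.990 had an interval of 0.908 to 1.08. ELL2 (5:95885098-95961851, minus strand), a stimulator of elongation, had 21 and 20 sense counts, or 5.05 and 5.84 CPM. Per kb it had 0.711 and 0.821 CPM, at percentile 3.76. AFF4 was thus 34.4 and 30.1 times ELL2 per kb in the libraries. Both genes are long and mostly intron, and exons make up 12.8% of the span of AFF4 and 9.26% of that of ELL2, so most of each locus is outside what was counted.

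In order of mean CPM per kb the 9 genes were 7SK, CCNT2, CDK9, AFF4, CCNT1, MEPCE, LARP7, ELL2 and HEXIM1. The library values overlapped between neighbours in 3 places: CCNT2 and CDK9, CCNT1 and MEPCE, and ELL2 and HEXIM1. The other 5 pairs of neighbours were apart. Setting replicate 2 aside changes the place of 7 of the 9 genes: CDK9 then stands above CCNT2, MEPCE above AFF4 and CCNT1, and HEXIM1 above ELL2. 7SK stays first, and LARP7 stays above only ELL2 and HEXIM1. The place of LARP7 depends on the length used. With both libraries and the longest transcript as length it stands above CCNT1 and MEPCE, and without length above MEPCE.

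Set against its partners, 7SK was at least 378 times as high per kb as any of the 8 in either library. Over CDK9 the ratio was 417 in replicate 1 and 439 in replicate 2, over CCNT2 473 and 378 (the smallest), and over AFF4 586 and 518. It was 654 and 549 over CCNT1, 563 and 881 over MEPCE, and 1374 and 1188 over LARP7. The largest ratios belonged to the genes with the fewest counts, 16616 and 19880 over HEXIM1 and 20170 and 15593 over ELL2. The median over the 8 genes was 620 in replicate 1 and 715 in replicate 2. Even against all 8 partners added together per kb, 7SK was 96.5 and 92.9 times as high. The gap in plain CPM is far smaller, since the 8 genes summed to 995 and 991 CPM.

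Such ratios compare RNA left in a chromatin fraction, after the authors' removal of duplicates by molecular identifier. They hold for exonic pairs only, and reads of the repeated part of 7SK that map to more than 1 place are missing from its side.

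The strand of the counts separated HEXIM1 from the other 8 genes. HEXIM1 had 65 and 67 opposite counts against 13 and 8 sense counts. The opposite share was 83.3% in replicate 1 (Wilson 95% interval 73.5 to 90.0) and 89.3% in replicate 2 (80.3 to 94.5). In the other 8 genes the opposite share was at most 2.46%, in MEPCE in replicate 1. Of the 12575 coding genes with at least 20 counts over both strands, 10% had more opposite than sense counts in both libraries, and 1 of the 8 coding genes described here did.

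An annotated lncRNA on the minus strand, HEXIM2-AS1 (17:45150400-45161538), shares 520 exon bases with HEXIM1 and 567 with HEXIM2. It had 24 and 37 sense counts of its own. Comparison of the stranded and unstranded columns shows that 21 and 29 pairs on HEXIM1 also lay on exons of another gene when strand was ignored. At least 44 of the 65 opposite pairs in replicate 1, and 38 of the 67 in replicate 2, therefore touched no exon of another gene in the files. The libraries are stranded by the kit's name, so sense and opposite pairs can be told apart, but what transcript the opposite pairs came from was not tested.

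HEXIM2, the paralog that can take the place of HEXIM1 in the particle, lies next to it on chromosome 17 and gave like values. It had 6 and 3 sense counts and 53 and 37 opposite counts. At least 44 and 28 of the opposite pairs lay off exons of other genes. HEXIM1 over HEXIM2 in sense CPM per kb was 1.20 and 1.48, from counts too few to set an order. HEXIM1 has counts too few for a firm sense level as well, since its interval for the replicate ratio ran from 0.515 to 3.73.

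LARP7 gave an example of the reverse. MIR302CHG, the host lncRNA of the miR-302 cluster (4:112646476-112650051, minus strand), lies inside LARP7 and shares 1318 exon bases with it. Its own strand had 0 sense counts in both libraries, and its opposite strand, which is the strand of LARP7, had 133 and 93. When strand was ignored, 135 and 99 pairs were lost from LARP7 as shared, or 38.5% and 32.9%. The sense counts of LARP7 do not suffer that loss. MEPCE shares 203 exon bases with ZCWPW1 on the other strand (29 and 28 sense counts) and had 9 and 4 opposite counts itself. CCNT2 has CCNT2-AS1 at its start, with 12 and 6 sense counts, and had 1 and 3 opposite counts.

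The annotation names 293 copies of 7SK as RN7SKP genes, and their counts are of pairs that map to these places only. Further entries that share the name 7SK itself are not part of these numbers. The highest of them lies inside ARHGEF12 on the same strand and had 21 and 10 sense counts. Reads that map to both 7SK and a copy are in no count. What transcript the pairs at a copy came from was not tested. Of the 293 copies 13 reached a mean sense count of 10, 217 had no sense count in either library and 76 had at least 1. As a scale, 4.49% of misc_RNA genes and 24.7% of all genes reached a mean of 10. All 293 copies together held 593 and 471 sense counts, or 3.01% and 3.24% of the counts of 7SK. Their opposite counts were 580 and 528, fewer than the sense counts in replicate 1 and more in replicate 2, where 7SK itself had none. The copies had a median of 305 bases and a median identity to 7SK of 85.4% over the part that aligned.

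Most copies with counts lay inside other genes. Of the 13 copies detected, 11 lay inside a gene of the same strand, 2 inside a gene of the opposite strand only and 0 outside genes. Among all 293, 94 lay inside a gene of the same strand, 73 inside one of the opposite strand only and 126 in none. Thus 11.7% of the copies inside a same-strand gene were detected, against 1.01% of the rest. Of the 16 copies with a mean opposite count of at least 10, 13 lay inside a gene of the opposite strand.

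The copies with the highest counts are RN7SKP240, RN7SKP184, RN7SKP253 and RN7SKP57, each inside the span of a longer gene of its strand. RN7SKP240 (6:22085544-22085918, 86.3% identity to 7SK) had 84 and 70 sense counts and lies in CASC15, a lncRNA of a neuroblastoma risk locus that had a mean count of 1925.5. RN7SKP184 (20:53097652-53097984, 91.1%) had 54 and 50 and lies in TSHZ2, with a mean count of 573. RN7SKP253 (4:139794125-139794433, 70.4%) had 57 and 40 and lies in MAML3, with a mean of 957. RN7SKP57 (5:111719769-111720061, 76.5%) had 39 and 21 and lies in NREP, with a mean of 914.5. None of these 4 had an opposite count.

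In 277 of the 293 copies all 75-base windows occurred once in the genome, so none of these windows matched 7SK exactly. In 8 copies fewer than 50% of the windows occurred once, and whether the rest matched 7SK or another place was not tested. The highest mean sense count among those 8 was 0.5, as was the sum over them. Reads that map to several places are in no count, so a low count there cannot be read as a lack of the RNA. The part of such reads in these low counts was not tested. As a scale, 217 of all 293 copies had no sense count. RN7SKP80 and RN7SKP203 were not among the 8. Their identity was 96.3% over bases 2 to 270 of 7SK and 98.3% over bases 1 to 241. Of their windows 74.2% and 73.3% occurred once, and they had 12 and 10, and 3 and 1, sense counts.

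Relatives and recruiters of P-TEFb were compared from lists of known genes, and with the 8 coding members left out 77 of 80 coding genes were detected, against 59.4% of all coding genes. In the super elongation complex and its relatives, 9 of 10 genes were detected, with a median of 48.4 CPM. ICE1, of the little elongation complex that serves small nuclear RNA genes, was the highest with 311 and 322 CPM, followed by its partner ICE2 with 186 and 184. The lowest detected was ELL, the founding member of the family of ELL2, with 20 and 19 sense counts. ELL3 had 0 sense and 6 opposite counts in each library, and 942 of its 2500 exon bases are its own.

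Paralogs of the members were set against them per kb within each library. AFF1 had 196 and 167 sense counts and AFF3 273 and 189. AFF4 was 5.69 and 5.56 times AFF1 and 5.85 and 7.04 times AFF3, the other scaffolds of the family. ELL2 was 0.726 and 0.728 of ELL, and both rest on about 20 counts. The elongation kinases CDK12 and CDK13 were at 0.375 and 0.428, and at 0.297 and 0.334, of CDK9. Per kb, the order AFF4 over AFF1 and AFF3, and that of CDK9 over both other kinases, was the same in each library. In plain CPM AFF4 stayed above AFF1 and AFF3, but the order of the kinases turned. CDK12 had 167 and 162 CPM and CDK13 253 and 241, against 103.2 and 87.6 for CDK9. CDK12 and CDK13 have 12975 and 24780 exon bases, against 3005 in CDK9.

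Of the genes that recruit P-TEFb or release it from 7SK, 14 of 15 were detected, with a median of 82.3 CPM. HNRNPA2B1 with 935 and 1287 CPM and SRSF2 with 755 and 768 CPM were the highest, an RNA-binding protein known to bind 7SK and a splicing factor that has been tied to release of P-TEFb from it. BRD2, a bromodomain protein that binds acetylated histones, had 41.6 and 36.8 CPM, the lowest level detected in the list. HEXIM2 was the 1 gene under the limit.

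The pausing factors, which P-TEFb acts on, were all detected, 6 of 6, from 21.7 CPM for NELFB to 119 for NELFCD, with a median of 28.8. SUPT5H, the large subunit of DSIF, had 75.1 and 66.9 CPM, and its partner SUPT4H1 had 23.3 and 26.0. The elongation and PAF complex genes were detected in 13 of 13 cases, with a median of 89.6 CPM. SETD2, which methylates histone H3 along genes, was highest with 237 and 246 CPM, then the FACT subunit SUPT16H with 226 and 234. PAF1, at 33.7 and 33.9, and TCEA2, at 43.6 and 29.5, were lowest.

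The other kinases and cyclins of RNA polymerase II were detected in 6 of 6 cases, with a median of 111 CPM. CCNH, the cyclin of TFIIH, was highest at 242 and 263 CPM, and CDK13 had 253 and 241. CDK7, the kinase that CCNH binds, was lowest at 5.58 ± 1.29 CPM (SD, n = 2), from 27 and 16 counts. CCNK, the cyclin of CDK12 and CDK13, had 44.5 and 47.0 CPM.

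7SK was set beside other short RNAs of the nucleus and of RNA polymerase III. Of 13 such RNA polymerase III genes, 12 had a row and 0 had a mean sense count of 10. The highest was VTRNA1-3, a vault RNA, with 2 and 5 counts. RNY1 (0 and 2), RNY3 (1 and 1), RNU6ATAC (0 and 1) and RN7SL2 (1 and 0) had a count or 2 in a library. The other 7, RMRP, RN7SL1, RNY4, RPPH1, VTRNA1-1, VTRNA1-2 and VTRNA2-1, had 0 in both. Of the other group, 10 small nuclear RNAs of the spliceosome and histone processing, 4 were detected: RNU4-2 with 109 and 126 counts, RNU1-1 with 39 and 38, RNU4-1 with 24 and 52, and RNU5A-1 with 26 and 31. RNU5B-1 had 6 and 12, RNU4ATAC 5 and 1, RNU2-1 0 and 1, and RNU11, RNU12 and RNU7-1 had 0 in both. The highest, RNU4-2, had a mean of 31.5 CPM, against 4493 for 7SK. Per kb RNU4-2 had 223 CPM, against 13575 for 7SK and a median of 6.69 in detected coding genes.

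A low count at these genes cannot be read as a lack of the RNA. Of the 22 small RNA genes with a row, 6 have fewer than 50% of their exon bases to themselves, and so do 5 of the 10 without counts. RNU1-1 and RNU2-1 have no 75-base window that occurs once, and RNU7-1 is shorter than a window. Of the windows of RN7SL1, RN7SL2 and RNY3, 22.7%, 15.9% and 35.7% occur once. A further 3996 genes in the files have no entry in GENCODE 44, so their overlap with small RNAs could not be checked. The authors also removed reads that matched a custom index of rRNA and spike-in sequence, and the sources used here do not give its full content. A gene without counts in both libraries has a limit of 0.396 CPM.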

How the data were processed

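Chromatin RNA of SH-SY5Y cells was sequenced in 2 libraries of 1 group, as 75-base read pairs with molecular identifiers, from a directional kit. Per the labels and the methods, the authors used UMI-tools, Bowtie (removal of rRNA and spike-in reads) and STAR on hg38, mapped again after removal of duplicates, and deposited raw counts of read pairs per gene in an unstranded column and 1 column for each strand. The sources used here give no tool versions, STAR options or annotation release. The strand column with the higher total in both libraries was taken as sense.

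From the deposited counts, CPM, CPM per kb, ratios within each library, Wilson intervals of shares, exact intervals of counts and limits of 3 counts for a count of 0 were computed in Python 3.11.15 (numpy 2.4.6, pandas 2.3.3, scipy 1.17.1, Biopython 1.88, matplotlib 3.10.9). Of 60554 genes, 56558 were found in GENCODE 44 (GRCh38), which gave names, positions and exon lengths, and a gene of the annotation without a row in the files took no exon bases from others. Windows of 75 bases were searched on both strands of hg38. The window search, and the replicate ratio with its interval, were tested on simulated data. Scaling by TMM (edgeR 4.0.16) and by median of ratios (DESeq2 1.42.0), in R 4.3.3, served as alternatives only, and no count model was fitted. Genes named are the members, their paralogs, the genes next to 7SK in CPM, the 4 copies with the most counts, and of each list the highest 2, the lowest 2 and those under a mean count of 10. The other genes named were added after their values were seen. Members and lists were chosen with earlier results of these data known. 1 gene that the rule takes is not reported here.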

Additional observations from a re-analysis of the deposited data

Results flagged for a closer look

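4 genes of the lists had more counts on the opposite strand than on their own in both libraries, in the column that the levels do not use. BRF2, a subunit of the RNA polymerase III factor that works at 7SK-type promoters, had a mean opposite count of 106 (119 and 93) against sense counts of 83 and 88. HEXIM2 had a mean opposite count of 45 (53 and 37) against 6 and 3. POLR2L, a small subunit shared by the RNA polymerases, had a mean opposite count of 42 (45 and 39) against 38 and 18. ELL3 had a mean opposite count of 6 (6 and 6) against 0 and 0. The scale for these is the background: of coding genes with at least 20 counts over both strands, 10% had more opposite than sense counts in both libraries, and the 4 of 80 coding list genes are not above that share. ELL3 has too few counts to be part of that background. There are no control samples to set the opposite counts against.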

How the results depend on the processing

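No paired analysis was possible because the 2 libraries are replicates of a single group with nothing to pair. Scaled to all uniquely mapped pairs in place of those in genes, 7SK was at 810 in place of 4493, and single libraries gave 4240 to 4747. The median of 7SK over its partners was 667 per kb, 506 with the longest transcript as length and 49.6 without length, and 620 to 715 in single libraries. The place of 3 genes changed with the longest transcript, of 5 without length and of 0 to 7 in single libraries. Of the coding genes of the lists 77 were detected, 18 in the opposite column and 77 to 77 in single libraries. Of the small RNAs 4 were detected, 9 at a mean count of 1, 1 at a mean count of 100, 0 in the opposite column and 4 to 5 in single libraries. Of the RN7SKP copies 13 were detected, 56 at a mean count of 1 and 0 at a mean count of 100. In the unstranded column 28 were detected, and 15 to 17 in single libraries. The median percentile of the 8 partners was 86.3, and 82.7 to 88.0 in single libraries. The opposite share of HEXIM1 was 86.3%, and 83.3 to 89.3 in single libraries. Of 32 alternatives for the CPM of single coding members, 11 moved it by more than the SD: 8 were those per uniquely mapped pair, which rescale every gene alike by construction, and 3 were the unstranded column (HEXIM1 13.2, LARP7 54.1 and AFF4 272). Scaling by TMM or by median of ratios moved none. The number of libraries limits the precision of every level, and HEXIM1, ELL2, HEXIM2 and ELL rest on so few counts that no order among them is set.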

Other observations

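Genes that end transcription or make its machinery were also present on chromatin. The integrator and termination genes were all detected, 7 of 7, with a median of 365 CPM. INTS1, the largest subunit of the integrator complex, was highest with 601 and 441 CPM, and XRN2, the nuclease that follows polymerase after cleavage, had 455 and 471. The lowest were PPP1R10, a subunit that targets protein phosphatase 1, with 27.2 and 22.5 CPM, and INTS3 with 67.1 and 62.2. INTS1 varied between the libraries and XRN2 much less.

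Of the 12 RNA polymerase II subunits 11 were detected, with a median of 26.8 CPM. POLR2B, the second largest subunit, had 281 and 275 CPM, and POLR2A, the largest, which carries the tail that CDK9 phosphorylates, had 84.5 and 90.8. POLR2I had 24 and 11 counts and POLR2F 1 and 0. The 7008 exon bases of POLR2F are all its own among genes with a GENCODE entry. Its overlap with the 3996 genes in the files without an entry could not be checked, so the cause of its low count was not tested. The 11 factors that transcribe snRNA and 7SK genes were all detected, with a median of 43.1 CPM. SNAPC3, of the complex that binds their promoters, was highest at 262 and 282 CPM and POU2F1 followed at 207 and 205. SNAPC1 at 17.1 and 14.0 CPM and SNAPC2 at 4.81 and 2.92 were the lowest, so that subunits of 1 complex stood far apart in CPM.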
